A study of Mus musculus with 12 samples.

Results

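Levels of 10 genes that control the breakdown of the heart's extracellular matrix were followed in mouse ventricles under outflow obstruction. The genes were chosen by name, with earlier results of these data known. The inhibitors are the tissue inhibitors of metalloproteinases Timp1, Timp2, Timp3 and Timp4 and the membrane-anchored inhibitor Reck. The matrix metalloproteinases are Mmp2, Mmp3, Mmp9, Mmp14 and Mmp23. Each of the 10 had 1 probe set annotated to it alone, among 19938 genes measured in this way, and none was removed by a filter. All animals were male C57BL/6 mice, and no transgene or mutant allele is given for any group. Right ventricles (RV) came from mice whose pulmonary artery had been narrowed with a clip (PAC) 1, 3 or 6 weeks earlier, at ages of 13, 15 and 18 weeks. Their controls were right ventricles of sham mice at 3 weeks, aged 15 weeks. Left ventricles (LV) came from mice with a transaortic constriction (TAC) and from sham mice, both at 3 weeks and aged 15 weeks. Hearts were perfused with buffer and cut into left ventricle, septum and right ventricle. Each of the 6 groups held 2 arrays, and the labels do not state whether these were separate animals, so the p-values speak only of the spread among these 12 samples, which could be technical. Sham tissue was taken at 3 weeks only, so PAC at 1 and at 6 weeks differs from sham RV in age and in time after operation as well.

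Values are log2 expression values on the deposited scale, and a difference of 1 is a doubling. Differences are given ± the limma standard error, and the threshold was an adjusted p of 0.05 after Benjamini-Hochberg adjustment over all 19938 genes. With 2 arrays in each group, the smallest p that exact permutation allows is 0.33. The mean of 7 ventricular muscle markers lay between 12.44 and 12.56 on all 12 arrays, as the tissue labels imply. The mean of 4 atrial muscle markers was 8.88 and 10.23 in PAC at 1 week, 7.66 and 9.3 at 3 weeks and 7.4 and 7.83 at 6 weeks, against 6.67 and 5.86 in sham RV. It was 7.55 and 7.29 in TAC and 7.12 and 8.53 in sham LV. The part of these markers in the results below was not tested. The correlation of the 2 arrays of a group over all genes ran from 0.9917 in PAC at 1 week to 0.9971 in TAC. Probe sets with no listed gene had array medians of 5.65 to 5.79, which serves as a mark of dim signal.

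Matrix metalloproteinases are zinc enzymes that cut collagens, gelatin, proteoglycans and other matrix proteins, and they are made as inactive precursors. TIMPs are small secreted proteins that plug the active site of these enzymes. At the cell surface Mmp14 binds Timp2, which in turn holds the Mmp2 precursor so that a neighbouring Mmp14 can cut and activate it. Reck is tethered to the membrane and restrains Mmp2, Mmp9 and Mmp14. In the heart most of these genes are expressed by fibroblasts and other interstitial cells, and Timp4 is known for its comparatively restricted expression in heart and a few other tissues.

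The stretch before the transcription start is shown for the inhibitors whose levels moved furthest in opposite directions, Timp1 and Timp4, for the membrane enzyme Mmp14, and for Mmp3, the only member with a match to the AP-1 element searched. RefSeq promoters on GRCm38.p6 were found for 8 of the 10 members, and not for Mmp2 and Mmp9. Each covers 250 bases before and 50 after the start. The search on both strands used TGANTCA for AP-1 and TATAAA for a TATA box, and TGAGTAA, a variant of the AP-1 element that was added after the sequences had been seen. The motifs do not overlap in the sequences shown, capitals mark the matches, and the 250 bases before the start are printed 5′ to 3′ on the gene's own strand. Timp1 lies on the plus strand at chrX:20869916-20870165, Timp4 on the minus strand at chr6:115252206-115252455, Mmp14 on the plus strand at chr14:54431348-54431597 and Mmp3 on the plus strand at chr9:7445572-7445821.
Timp1: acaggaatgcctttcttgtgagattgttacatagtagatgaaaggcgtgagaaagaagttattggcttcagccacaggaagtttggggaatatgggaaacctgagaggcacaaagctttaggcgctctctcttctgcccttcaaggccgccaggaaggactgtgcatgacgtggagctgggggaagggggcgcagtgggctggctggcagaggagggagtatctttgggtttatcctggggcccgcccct
Timp4: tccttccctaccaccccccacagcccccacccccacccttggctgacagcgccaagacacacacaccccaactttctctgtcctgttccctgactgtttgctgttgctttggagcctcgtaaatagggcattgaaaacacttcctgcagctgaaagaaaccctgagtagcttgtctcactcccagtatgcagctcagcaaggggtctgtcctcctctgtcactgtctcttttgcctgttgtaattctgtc
Mmp14: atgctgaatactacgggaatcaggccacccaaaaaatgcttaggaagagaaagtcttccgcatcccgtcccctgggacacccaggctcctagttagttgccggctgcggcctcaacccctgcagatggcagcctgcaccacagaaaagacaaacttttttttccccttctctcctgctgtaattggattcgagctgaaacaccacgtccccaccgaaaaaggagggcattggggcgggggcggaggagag
Mmp3: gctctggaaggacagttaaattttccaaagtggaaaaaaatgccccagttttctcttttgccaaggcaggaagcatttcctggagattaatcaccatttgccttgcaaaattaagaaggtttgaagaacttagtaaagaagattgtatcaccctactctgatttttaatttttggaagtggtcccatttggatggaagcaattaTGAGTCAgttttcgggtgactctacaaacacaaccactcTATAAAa
The TGAGTCA of Mmp3 begins 46 bases before the annotated start and its TATAAA 7 bases before it. Of 32851 mouse promoters of this length 7.81% held the AP-1 letters and 13.6% the TATA letters. The variant TGAGTAA was in 2.68% of them and, among the members, in Timp1 alone, where it begins at base 27 after the start. It is shown within 30 bases, chrX:20870181-20870210.
Timp1 site: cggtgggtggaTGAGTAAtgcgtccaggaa
A match is a description of letters only, and none of these letters stood in the windows of the other 6 members searched.

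Among the inhibitors, Timp1 rose in the clipped right ventricle at 1 week, Timp4 fell at 3 and 6 weeks, and Reck rose by a smaller amount at 1 and 6 weeks. Timp1, a secreted inhibitor that is induced in injured and remodelling tissue, had levels of 7.63 and 10.58 in PAC at 1 week, 8.11 and 8.84 at 3 weeks and 7.85 and 8.85 at 6 weeks, against 6.49 and 6.22 in sham RV. All 6 PAC arrays lay above both sham RV arrays, and the highest and the lowest PAC value were the 2 arrays of the 1 week group. Timp1 rose by 2.75 ± 0.71 at 1 week (6.74-fold, adjusted p = 0.029), a call that was lost with a trended robust prior (adjusted p = 0.08) and in a fit of only the arrays compared (adjusted p = 0.083). At 3 weeks it differed by 2.12 ± 0.71 (4.35-fold, adjusted p = 0.086) and at 6 weeks by 1.99 ± 0.71 (3.98-fold, adjusted p = 0.095), and neither passed. Its wide error comes with a gap of 2.94 between the arrays of PAC at 1 week, where the other 5 groups had gaps of 0.26 to 1 in either direction. With either of the 1 week arrays left out of the fit, the 3 week difference had adjusted p = 0.011 and the 6 week difference adjusted p = 0.0075. Without array 2 of PAC at 1 week the 1 week difference was 1.28 (adjusted p = 0.11), so that array decides its size. PAC at 6 weeks against PAC at 1 week gave -0.76 ± 0.71 (adjusted p = 0.81), which was -2.23 without array 1 of PAC at 1 week (adjusted p = 0.018) and 0.71 without its array 2, so this difference has no settled direction.

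Timp4 had levels of 8.02 and 7.44 in PAC at 1 week, 7.24 and 7.47 at 3 weeks and 7.42 and 6.85 at 6 weeks, against 8.35 and 8.02 in sham RV. Both arrays at 3 and at 6 weeks lay below both sham RV arrays, while at 1 week array 1 was level with the lower sham array to the printed digits. Timp4 fell by 0.83 ± 0.21 at 3 weeks (adjusted p = 0.047, or 0.055 with loess scaling) and fell by 1.05 ± 0.21 at 6 weeks, to 0.482 of the sham level (adjusted p = 0.02). The 3 week call of Timp4 was also lost with any left ventricle array left out, where the difference stayed at -0.83. It was lost with either array of PAC at 3 weeks left out too (-0.72 or -0.95). At 1 week the Timp4 difference was -0.46 ± 0.21 (adjusted p = 0.14). PAC at 6 weeks against PAC at 1 week gave a difference of -0.59 ± 0.21 (adjusted p = 0.38), which did not pass although the arrays did not overlap. The 1 week difference was -0.75 without array 1 of that group (adjusted p = 0.034) and -0.17 without array 2.

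Timp2 and Timp3 showed small differences that did not pass at any time. Timp2, the inhibitor that takes part in Mmp2 activation, had 9.65 and 10.01 in PAC at 1 week, 9.88 and 9.98 at 3 weeks and 9.68 and 10.19 at 6 weeks, against 9.43 and 9.41 in sham RV. Every PAC array exceeded both sham RV arrays, with differences of 0.41 ± 0.16, 0.51 ± 0.16 and 0.51 ± 0.16 at 1, 3 and 6 weeks (adjusted p = 0.097, 0.081 and 0.073). It passed in some alternatives, among them 3 weeks in a fit of only the arrays compared (adjusted p = 0.033) and 6 weeks with either 1 week array left out (adjusted p = 0.048). Timp3, which binds to the matrix and also inhibits ADAM proteases, had 9.74 and 10.12, then 9.71 and 10.25, then 10.01 and 10.29 at the 3 PAC times, against 9.73 and 9.67 in sham RV. Its differences were 0.24 ± 0.17, 0.28 ± 0.17 and 0.45 ± 0.17 (adjusted p = 0.34, 0.3 and 0.11), and at 3 weeks the arrays overlapped.

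Reck, the membrane-anchored inhibitor, changed by little but evenly. Its levels were 7.66 and 7.83 in PAC at 1 week, 7.63 and 7.75 at 3 weeks and 7.66 and 7.88 at 6 weeks, against 7.35 and 7.41 in sham RV. All 6 PAC arrays exceeded the sham pair. Reck rose by 0.37 ± 0.10 at 1 week (1.29-fold, adjusted p = 0.034) and by 0.39 ± 0.10 at 6 weeks (1.31-fold, adjusted p = 0.04), and stood at 0.31 ± 0.10 at 3 weeks (adjusted p = 0.083). With loess scaling it missed the threshold at both times, with adjusted p = 0.056 at 1 week and 0.052 at 6 weeks. In a fit of only the arrays compared it missed it as well (adjusted p = 0.1 and 0.083), so these calls depended on the fit.

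**Figure D1:**
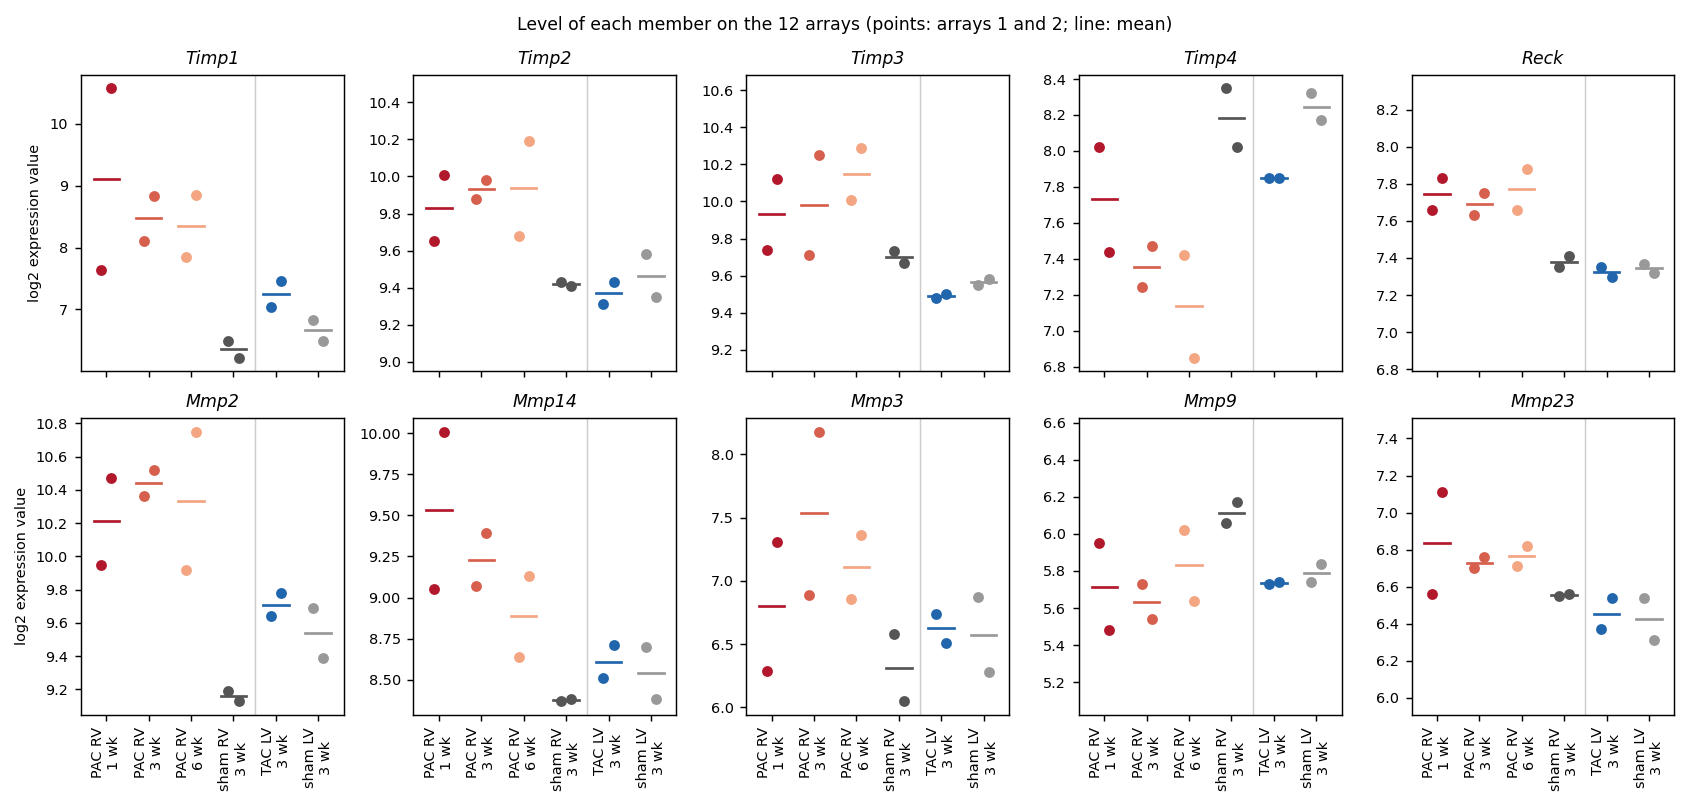
Level of each of the 10 genes on the 12 arrays, as log2 expression values on separate vertical scales, with points for arrays 1 and 2 of a group and a line for their mean. PAC right ventricles stand left of sham RV, and TAC left ventricles left of sham LV. All 6 PAC arrays of Timp1, Timp2, Reck, Mmp2 and Mmp14 lie above both sham RV arrays.

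Among the proteases, Mmp2 was higher in the clipped ventricle at all 3 times. Mmp2, a gelatinase that is made mostly by fibroblasts, had levels of 9.95 and 10.47 in PAC at 1 week, 10.36 and 10.52 at 3 weeks and 9.92 and 10.75 at 6 weeks, against 9.19 and 9.13 in sham RV. The lowest PAC array was above the higher sham array, and the sham pair was close together. Mmp2 rose by 1.05 ± 0.24 at 1 week (2.07-fold, adjusted p = 0.02), by 1.28 ± 0.24 at 3 weeks (2.43-fold, adjusted p = 0.027) and by 1.17 ± 0.24 at 6 weeks (2.26-fold, adjusted p = 0.021). The 1 week call was lost in a fit of only the arrays compared (adjusted p = 0.053). With single arrays left out the difference ran from 0.79 to 1.31 at 1 week, from 1.2 to 1.36 at 3 weeks and from 0.76 to 1.59 at 6 weeks. It no longer passed without array 2 of the PAC group concerned (adjusted p = 0.13, 0.19 and 0.16 at 1, 3 and 6 weeks; difference 0.76 at 6 weeks) or without either sham RV array (0.067 to 0.12).

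Mmp14, the membrane enzyme that activates Mmp2 and itself cuts fibrillar collagen, had its highest group mean at 1 week. Its arrays there overlapped those at 3 weeks. It had 9.05 and 10.01 in PAC at 1 week, 9.07 and 9.39 at 3 weeks and 8.64 and 9.13 at 6 weeks, against 8.37 and 8.38 in sham RV. No PAC array overlapped the sham pair, and the 2 arrays of PAC at 1 week differed by 0.96. Mmp14 rose by 1.15 ± 0.27 at 1 week (2.22-fold, adjusted p = 0.021), a call that was lost in a fit of only the arrays compared (adjusted p = 0.068). At 3 weeks the difference was 0.85 ± 0.27 (adjusted p = 0.075) and at 6 weeks 0.51 ± 0.27 (adjusted p = 0.22). The 3 week difference passed with either 1 week array left out of the fit (adjusted p = 0.021) and in a fit of only the arrays compared (adjusted p = 0.013). PAC at 6 weeks against PAC at 1 week gave -0.64 ± 0.27 (adjusted p = 0.47), with overlapping arrays. Without array 2 of PAC at 1 week the 1 week difference was 0.67 (adjusted p = 0.12), and without array 1 of that group the change between 6 weeks and 1 week was -1.12 (adjusted p = 0.025).

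Mmp3, Mmp9 and Mmp23 did not pass in any comparison. Mmp3, or stromelysin 1, which cuts proteoglycans and activates other MMP precursors, had 6.29 and 7.31 in PAC at 1 week, 6.89 and 8.18 at 3 weeks and 6.86 and 7.36 at 6 weeks, against 6.58 and 6.05 in sham RV. Its arrays were spread widely within groups, and its largest difference was 1.22 ± 0.42 at 3 weeks (adjusted p = 0.093). Without array 1 of PAC at 3 weeks that difference was 1.87 (adjusted p = 0.041).

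Mmp9, the gelatinase that neutrophils store in granules, was dim, with 7 of its 12 arrays above the median of unlisted probe sets on the same array. It had 5.95 and 5.48 in PAC at 1 week, 5.73 and 5.54 at 3 weeks and 6.02 and 5.64 at 6 weeks, against 6.06 and 6.17 in sham RV. Every PAC array was below both sham RV arrays, and the differences were -0.40 ± 0.16, -0.48 ± 0.16 and -0.29 ± 0.16 (adjusted p = 0.095, 0.083 and 0.25). The mean of 10 neutrophil markers lay between 4.63 and 4.86 on all arrays, under the level of unlisted probe sets. Mmp23, a small membrane-bound metalloproteinase, had 6.56 and 7.11 in PAC at 1 week, 6.7 and 6.76 at 3 weeks and 6.71 and 6.82 at 6 weeks, against 6.55 and 6.56 in sham RV. Its differences of 0.28 ± 0.15, 0.18 ± 0.15 and 0.21 ± 0.15 had adjusted p = 0.2, 0.46 and 0.38. Single arrays of PAC at 1 week decide the 1 week values of Mmp9 and Mmp23. Without array 1 Mmp9 stood at -0.63 (adjusted p = 0.019), and without array 2 at -0.17. Without array 1 Mmp23 stood at 0.56 (adjusted p = 0.014), and without array 2 at 0.01. With either 1 week array left out, Mmp9 at 3 weeks had adjusted p = 0.041.

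Counted together, 4 members rose and 0 fell at 1 week of PAC (Timp1, Mmp2, Mmp14 and Reck), where 18.4% of all genes passed, 9.57% higher and 8.86% lower. At 3 weeks Mmp2 rose and Timp4 fell, against 5.76% of all genes passing, 3.22% higher and 2.54% lower. At 6 weeks Mmp2 and Reck rose and Timp4 fell, against 9.25% passing, 5.52% higher and 3.73% lower. The 3 comparisons share the same 2 sham RV arrays. Because the members were chosen with earlier results of these data known, the counts and shares are a description and not a test. None of these calls passed without array 2 of the PAC group concerned or without either sham RV array, fits in which the lone array of a group is taken to vary like the other groups. Without a sham RV array the differences themselves moved little for Mmp2 (1.02 to 1.31 over the 3 times), while Timp4 at 3 weeks was -0.67 or -0.99. Without array 2 of PAC at 1 and at 3 weeks together, the arrays with the highest atrial marker means, 0 members passed at 1 week, 0 at 3 weeks and 5 at 6 weeks. With loess scaling 1363 of 2174 passing genes were higher at 1 week, against 1909 of 3675 on the deposited scale. The median difference of the 10 members was 0.39, 0.41 and 0.48 at 1, 3 and 6 weeks, where the median over all genes was -0.052, -0.049 and -0.051. Arrays did not overlap between PAC and sham RV for 7 members higher and 2 lower at 1 week, against 26.4% and 36.7% of all genes (63.1% in either direction). At 3 weeks they were again 7 higher and 2 lower, against 25.5% and 35.7% (61.1%), and at 6 weeks 8 higher and 2 lower, against 26% and 35.8% (61.8%). Between PAC at 6 weeks and PAC at 1 week 0 members passed by limma, against 0.0953% of all genes, 0.0351% higher and 0.0602% lower. Timp4 and Mmp14 were the 2 members with an unadjusted p under 0.05 there, where 9.75% of all genes had one, and Timp4 was the 1 member whose arrays did not overlap, against 35.6% of all genes.

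**Figure D2:**
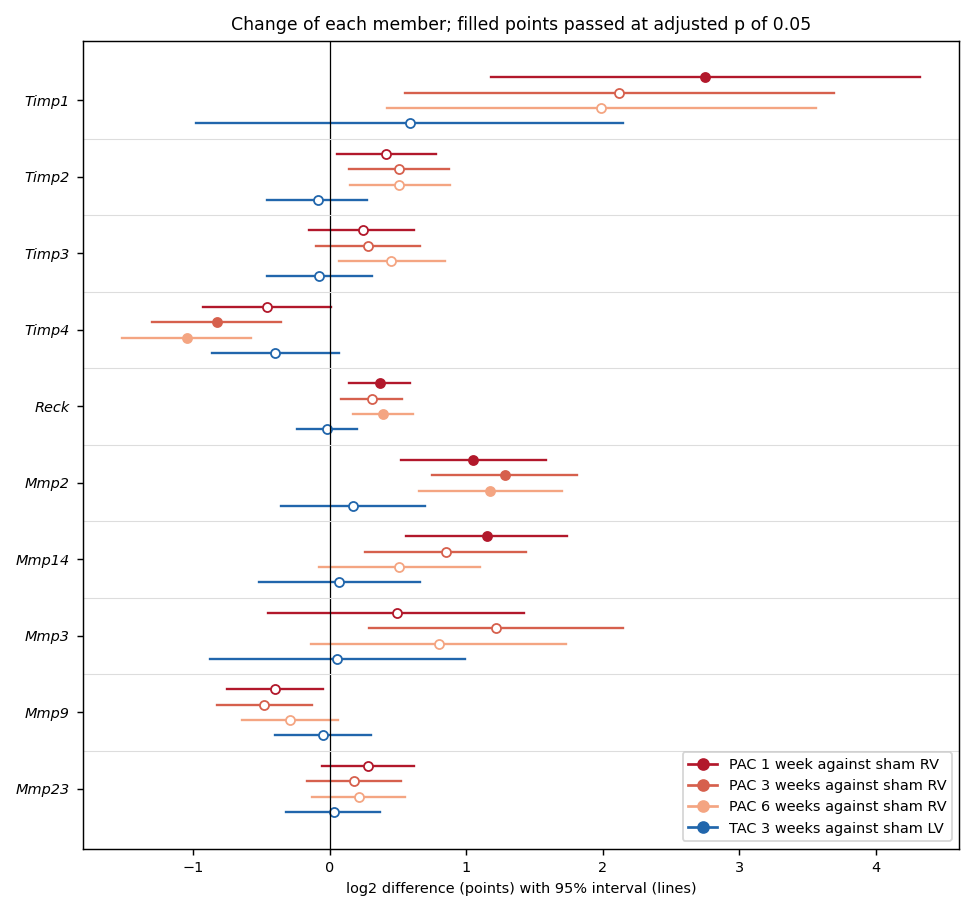
Change of each gene in 4 comparisons, as a log2 difference (horizontal axis) with its 95% interval from limma, where filled points passed at an adjusted p of 0.05. Mmp2 is filled at all 3 PAC times and Timp4 at 3 and 6 weeks, and no point is filled for TAC.

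The order of the group means placed the 3 PAC groups at the top for Timp1, Timp2, Timp3, Mmp2, Mmp3, Mmp14, Mmp23 and Reck, and at the bottom for Timp4. Neighbouring PAC groups overlapped in their arrays for all 10 members wherever they stood next to each other in that order. Below the PAC groups, Timp1 was separated from TAC by 1.1, Mmp2 from TAC by 0.5, Timp2 from sham LV by 0.37 and Reck from sham RV by 0.31, each without overlap of arrays. For Mmp14 the PAC 6 week group and TAC overlapped, with a gap of 0.28, and for Mmp3 no neighbouring groups were separated. For Mmp9 sham RV stood highest, 0.29 above PAC at 6 weeks and without overlap.

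No member passed in the left ventricle under aortic constriction. Timp1 had 7.03 and 7.46 in TAC against 6.83 and 6.49 in sham LV (0.59 ± 0.71, 95% interval -0.98 to 2.15, adjusted p = 0.98), with both TAC arrays higher. Timp4 had 7.85 and 7.85 in TAC against 8.32 and 8.17 in sham LV (-0.40 ± 0.21, 95% interval -0.86 to 0.07, adjusted p = 0.98), with both lower. Mmp2 had 9.64 and 9.78 in TAC against 9.69 and 9.39 in sham LV (0.17 ± 0.24, 95% interval -0.36 to 0.7), and the arrays overlapped. The other 7 members differed by -0.09 to 0.07. Of the members 0 passed by limma and 0 had an unadjusted p under 0.05, and over all genes 0% passed and 4.83% had an unadjusted p under 0.05. The arrays of 3 members did not overlap between TAC and sham LV, against 41.3% of all genes.

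The chambers were then compared at 3 weeks, where PAC and TAC differ in operation as well as in chamber. In sham hearts 0 members passed between RV and LV by limma (0.411% of all genes passed), 0 had an unadjusted p under 0.05 where 20.7% of all genes did, and the differences, RV minus LV, ran from -0.38 for Mmp2 to 0.33 for Mmp9. The arrays of 3 members were higher and of 2 lower in sham RV without overlap, against 29.3% and 26.1% of all genes (55.4% in either direction). With loess scaling 28 of 82 passing genes were higher in sham RV, against 15 of 82 on the deposited scale. Between PAC and TAC the arrays of all 10 members were separated, 8 higher and 2 lower in PAC, where 42.3% of all genes were separated, 19.9% higher and 22.4% lower. None of the 10 passed by limma (0.0201% of all genes passed), and 6 had an unadjusted p under 0.05, as did 7.37% of all genes. These were Reck (0.36 ± 0.10), Timp2 (0.56 ± 0.16), Mmp2 (0.73 ± 0.24), Timp3 (0.49 ± 0.17), Timp4 (-0.50 ± 0.21) and Mmp14 (0.62 ± 0.27), with adjusted p from 0.54 to 0.66.

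The PAC change less the TAC change passed for 0 members by limma and for 0% of all genes. Chamber and operation differ together in this test, so their parts cannot be told apart. At an unadjusted p under 0.05 stood 3 members, and 11.9% of all genes did so. They were Mmp2 (1.11 ± 0.34, 95% interval 0.36 to 1.86, adjusted p = 0.36), Timp2 (0.60 ± 0.23, adjusted p = 0.39) and Reck (0.32 ± 0.14, adjusted p = 0.41). For Timp1 the interval ran from -0.68 to 3.75, so a difference between the changes was neither shown nor bounded closely.

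**Figure D3:**
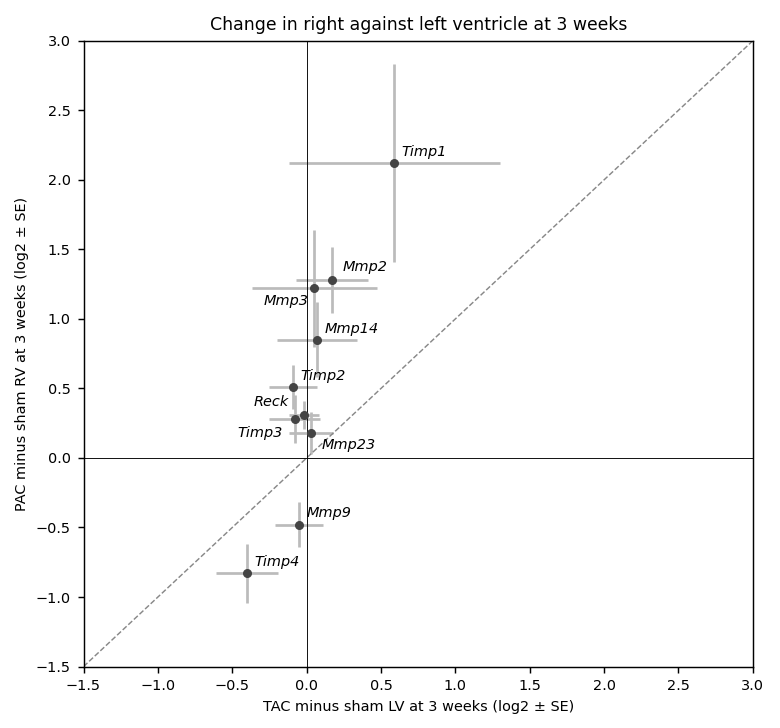
Change of each gene at 3 weeks in right ventricle (PAC minus sham RV, vertical axis) and left ventricle (TAC minus sham LV, horizontal axis), in log2 units, with limma standard errors as bars and a dashed line of equal change. The 8 members with a PAC change above 0 lie above the line and Timp4 and Mmp9 below it. The PAC change less the TAC change passed for none of them.

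The 2 arrays of each PAC group did not carry the members at the same level. Array 2 was higher than array 1 at all 3 times for 8 of the 10 members and lower at all 3 times for Mmp9, with Timp4 on mixed sides. Over all genes 19.2% had array 2 higher at all 3 times and 21.1% had it lower. The deviations of same-numbered arrays from their group means correlated at 0.26 to 0.37 between PAC groups over all genes, and at -0.09 to 0.02 between PAC groups and sham RV. The mean of 7 fibroblast markers was also higher on array 2, at 10.04 and 10.67 at 1 week, 10.25 and 10.35 at 3 weeks and 9.85 and 10.23 at 6 weeks of PAC, against 9.41 and 9.38 in sham RV. Of these markers 5 passed as higher at 1 week, 4 at 3 weeks and 1 at 6 weeks. For this and the following lists, 9.57%, 3.22% and 5.52% of all genes passed as higher at these times. As lower, 8.86%, 2.54% and 3.73% of all genes passed. The mean of 8 macrophage and monocyte markers was 8.04 and 8.81 at 1 week, 7.88 and 8.08 at 3 weeks and 7.73 and 7.71 at 6 weeks, against 7.57 and 7.55 in sham RV, and all 8 passed as higher at 1 week and 0 at the later times. Endothelial markers passed as higher for 2, 3 and 0 of 6 and smooth muscle and pericyte markers for 2, 3 and 2 of 6 at 1, 3 and 6 weeks. The mean of 4 valve and cartilage-like matrix markers was 6.65 and 7.73 in PAC at 1 week, 7.62 and 7.92 at 3 weeks and 7.97 and 8.91 at 6 weeks, against 6.39 and 6.47 in sham RV. Of these Cilp passed as higher at all 3 times, Comp and Prg4 at 6 weeks, and Chad as lower at 3 weeks. The mean of 5 epicardial and mesothelial markers was 7.88 and 7.18 at 1 week, 6.63 and 6.97 at 3 weeks and 6.48 and 5.94 at 6 weeks, against 7.23 and 6.59 in sham RV, with Msln passing as higher at 1 week and Lrrn4 as lower at 6 weeks. More cells of a type and more RNA per cell cannot be told apart in these tissue pieces, and the part of these cells in the members' changes was not tested.

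**Figure D4:**
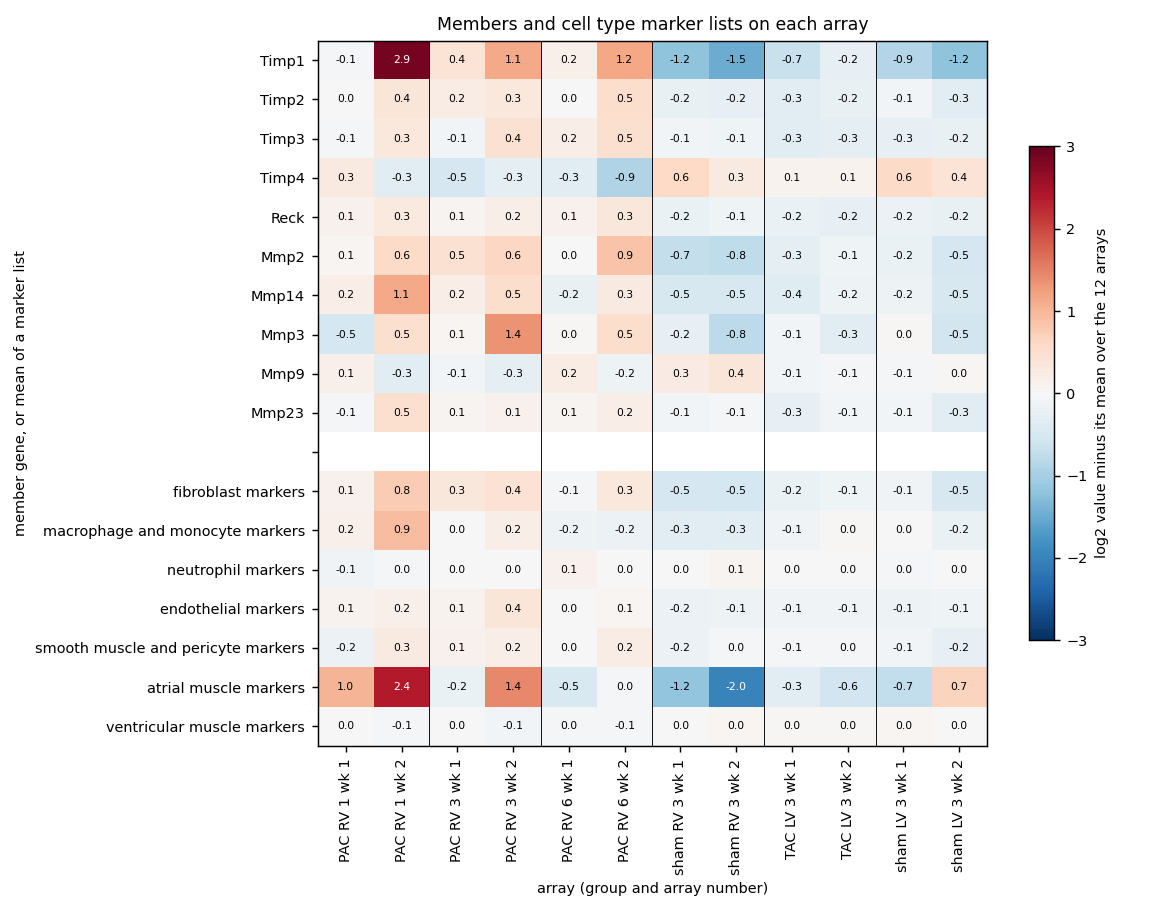
Members (upper block) and means of cell type marker lists (lower block) on each array, as log2 values minus the mean of that gene or list over the 12 arrays, with the colour and the printed number showing the same quantity. Timp1 and the fibroblast and macrophage marker lists are highest on array 2 of PAC at 1 week, and the ventricular muscle list stays near 0 on all arrays.

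Genes with the most similar profile were found for the 5 members whose group means spanned at least 1 log2 unit, by the root mean square difference over the 12 arrays after centring each gene. Nearest to Timp1 were the collagen cross-linking enzyme Lox (0.3), fibronectin Fn1 (0.43) and the collagen chain Col1a1 (0.46). Mmp2 was followed most closely by Ccdc80 (0.09), the ligand Tgfb3 (0.1) and Pqlc3 (0.13), and Mmp14 by elastin Eln (0.11), Myof (0.12) and the collagen chain Col6a1 (0.13). For Timp4 these were Cabcoco1 (0.13), Dglucy (0.13) and Gstk1 (0.16). Nearest to Mmp3 were Fkbp5 (0.23), Acer2 (0.26) and Kcne4 (0.28).

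Other genes of matrix proteolysis were counted from lists of the same pathway. Over all genes 18.4% passed at 1 week (9.57% higher, 8.86% lower), 5.76% at 3 weeks (3.22% and 2.54%) and 9.25% at 6 weeks (5.52% and 3.73%). Of 17 further MMP genes measured 0 rose at any PAC time by limma, and 1 fell, Mmp10 at 1 week (5.46 against 5.81, -0.35 ± 0.11, adjusted p = 0.048), a dim gene. Their median difference was -0.14, -0.08 and -0.15 at 1, 3 and 6 weeks. At these times 5, 4 and 2 of them had an unadjusted p under 0.05, against 37.9%, 29.7% and 30.3% of all genes. Of 23 ADAM and ADAMTS proteases 6 rose and 2 fell at 1 week, and 2 rose and 1 fell at each later time. Adam17, the sheddase that Timp3 inhibits, rose by 0.46 ± 0.09 at 1 week, 0.45 ± 0.09 at 3 weeks and 0.38 ± 0.09 at 6 weeks, and the versican-cutting Adamts9 rose by 0.53 ± 0.09, 0.67 ± 0.09 and 0.70 ± 0.09. Adamts1 (0.94 ± 0.27), Adamts12 (0.76 ± 0.18) and Adam10 (0.50 ± 0.09) rose at 1 week, where the dim Adamts18 fell by 0.51 ± 0.14. Adamts7 fell by 0.54 ± 0.14 at 3 weeks and fell by 0.66 ± 0.14 at 6 weeks.

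Of 17 genes of the plasminogen system and of other proteases 7 rose and 1 fell at 1 week, 2 rose at 3 weeks and 1 at 6 weeks. Over all genes 18.4%, 5.76% and 9.25% passed at these times in either direction. The collagen-degrading cathepsin Ctsk rose by 1.24 ± 0.32 at 1 week and 1.34 ± 0.32 at 3 weeks, and Ctss, a cathepsin of macrophages, by 1.12 ± 0.30 at 1 week. Fap, a protease of activated fibroblasts, rose by 0.78 ± 0.13, 0.68 ± 0.13 and 0.58 ± 0.13 at the 3 times. Plasminogen activator Plat rose by 0.73 ± 0.22 at 1 week, the procollagen proteinase Bmp1 by 0.64 ± 0.18 and the urokinase receptor Plaur by 0.46 ± 0.14. At 1, 3 and 6 weeks 9.57%, 3.22% and 5.52% of all genes passed as higher. Of 15 inducers and partners of MMPs 4, 2 and 3 rose at these times and 0 fell. They included the hyaluronan receptor Cd44 (0.99 ± 0.23 at 1 week), the procollagen enhancers Pcolce (0.85 ± 0.22 at 1 week) and Pcolce2 (0.74 ± 0.19 at 3 weeks, 0.75 ± 0.19 at 6 weeks), and the integrin chain Itgav (0.61 ± 0.15 at 1 week). Caveolin Cav1 rose by 0.65 ± 0.09 at 1 week and 0.43 ± 0.09 at 3 weeks. At 6 weeks the endocytic receptor Lrp1, which clears MMP and TIMP complexes, rose by 0.90 ± 0.21 and the matricellular protein Thbs1 by 2.44 ± 0.59. In TAC 0 genes of these 4 lists passed by limma, and 0, 1, 2 and 0 had an unadjusted p under 0.05. Over all genes these shares were 0% and 4.83%.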

How the data were processed

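Affymetrix whole-transcript array values were available for 12 samples. The values are log2 expression values deposited by the authors and made with RMA in Affymetrix Power Tools, per the submitters' processing notes; the sources used here give no software version or genome build. Array medians were 6.32 to 6.4, and no further scaling was applied. Background correction and quantile scaling in RMA can compress low signals, so fold changes of dim genes may be understated, which was not measured here.

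Of 35556 probe sets, 21789 carried 1 gene, 1621 several and 12146 none in the annotation given; where several probe sets named a gene, the brightest on average was kept, leaving 19938 genes. Group means were estimated from the 12 arrays together by limma 3.58.1, run in R 4.3.3 (6 residual and 4.6 prior degrees of freedom), with Benjamini-Hochberg adjustment over 19938 genes in each of 8 comparisons. The step was tested on simulated data with independent arrays, which do not carry the shared deviations of same-numbered PAC arrays. Members, lists and tests were chosen with earlier results of these data known. From the pathway lists, passing genes are named, up to 6 per list and comparison by size. Alternatives were loess scaling, the mean over probe sets, a filter on dim genes, a trended robust prior, a replicate block, a fit of only the arrays compared, and each array left out. Replicate numbers were not used as pairs, since no label gives them a shared source. The number of arrays limits the precision. Array 2 of PAC at 1 and at 3 weeks, the arrays highest in atrial markers, were left out together in an alternative chosen after seeing the data.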

Additional observations from a re-analysis of the deposited data

Results flagged for a closer look

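The arrays of Timp2 and Timp3 lay on opposite sides of the sham means in the 2 chambers at 3 weeks, although neither gene passed in either chamber. Beside the sham arrays themselves, the TAC arrays of Timp2 overlapped sham LV and the PAC arrays of Timp3 overlapped sham RV. For Timp2 the PAC arrays lay 0.46 and 0.56 above the sham RV mean, and the TAC arrays lay at -0.15 and -0.04 from the sham LV mean. The PAC change less the TAC change was 0.6 ± 0.23 (unadjusted p = 0.026, limma adjusted p = 0.39). For Timp3 the PAC arrays lay 0.01 and 0.55 above the sham RV mean, and the TAC arrays at -0.09 and -0.07 from the sham LV mean. The difference of the changes was 0.36 ± 0.24 (limma adjusted p = 0.55). Neither difference of the changes passed.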

How the results depend on the processing

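No member that passed in the reported fit changed sign in any alternative run. With PAC at 1 week, 4 members and 3675 genes passed, 2174 genes with loess scaling, 0 members and 89 genes in a fit of only the arrays compared, and 0 members and 277 genes without array 2 of PAC at 1 and at 3 weeks. With single arrays left out, 0 to 8 members and 227 to 4557 genes passed. With PAC at 3 weeks the counts were 2 and 1148, then 1 and 535 with loess scaling, 6 members with only the arrays compared, and 0 and 22 without those 2 arrays, with ranges of 0 to 5 and 3 to 2070. With PAC at 6 weeks they were 3 and 1844, then 1020 genes with only the arrays compared and 5 members without those 2 arrays, with ranges of 0 to 5 and 3 to 2656. The 0 members came from leaving out array 2 of the PAC group concerned or either sham RV array. Without a sham RV array the Mmp2 difference stayed at 1.02 to 1.31. Without array 2 of the PAC group concerned it was 0.79, 1.2 and 0.76 at 1, 3 and 6 weeks. Between 6 weeks and 1 week 0 members and 19 genes passed, with 32 genes among genes at or above the median gene level, 6.74, 83 with a trended robust prior, 11 with the replicate block and 1 with only the arrays compared (0 to 2 members and 1 to 488 genes without single arrays). For sham RV against sham LV 82 genes passed, against 871, 723, 6 and 142 under the dim filter, the trended prior, only the arrays compared and the removal of the 2 arrays (0 to 252 without single arrays). For PAC against TAC 4 genes passed, with 0 from only the arrays compared and 1 without the 2 arrays (0 to 12), for the difference of the changes 0, with 2 from only the arrays compared (0 to 3), and for TAC 0 (0 to 1). With the replicate block 4, 2 and 3 members passed at 1, 3 and 6 weeks, as without it. Deviations of same-numbered arrays correlated at 0.26, 0.37 and 0.26 between the PAC groups and at -0.24 to 0.11 between all other groups. No label gives these numbers a shared source, and a shared source was not tested. For PAC at 6 weeks against 1 week the block gave 0 members, with Timp4 at adjusted p = 0.27. Timp1 at 1 week missed the threshold with the trended robust prior (adjusted p = 0.08), and Timp4 at 3 weeks with loess scaling (adjusted p = 0.055). Mmp9 and Mmp23 lie below the median level and drop out under that filter. The cause of these shifts was not tested.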

Other observations

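Timp1, Timp3 and Timp4 lie within the synapsin genes Syn1, Syn3 and Syn2 in the RefSeq gene table. The host genes had lowest and highest array values of 5.59 and 5.98 for Syn1, 5.89 and 6.26 for Syn3 and 6.55 and 6.89 for Syn2. Syn1 and Syn3 lie at or little above the level of probe sets with no listed gene, so their narrow ranges carry no information.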
